A study of Homo sapiens with 6 samples.

Results

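The genes described here encode intermediate filament proteins and the plakins that tie filaments to other structures: every gene with a keratin symbol (KRT and a number, pseudogenes and keratin-associated proteins left out), together with VIM, DES, NES, SYNM, LMNA, LMNB1, LMNB2, NEFL, NEFM, PPL, EVPL and PLEC. By this rule 56 of the 19775 genes with a probe set of their own were members, 44 of them keratins. Another 11 symbols covered by the rule, among them KRT17, KRT6A, KRT6B and KRT6C, had no probe set that named them alone in the annotation used and were not analysed here. A gene was read from its brightest probe set. The cells were Caco2, a line from a human colon cancer, and the arrays were Affymetrix HG U133 Plus 2.0. RNA of cells resistant to 10 µM methotrexate (MTX), an antifolate, was hybridized to 3 arrays, and RNA of the parental, MTX-sensitive cells to another 3. The resistant cells were selected in the laboratory with rising MTX concentrations and kept in medium without glycine, hypoxanthine and thymidine and with dialyzed serum. The parental cells were kept in Ham's F12 medium with fetal bovine serum, so resistance and medium cannot be told apart. The sources do not say whether the resistant line was a single clone, or whether MTX was present when RNA was taken.

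Keratins are the intermediate filament proteins of epithelia. They assemble as obligate pairs of a type I (acidic) and a type II (basic to neutral) chain, and the pairs in use mark the kind of epithelium. Simple epithelia such as the intestine use KRT8 with KRT18 and KRT19, differentiated intestinal cells add KRT20, and stratified epithelia use others, among them KRT5 with KRT14 in basal and KRT1 with KRT10 in suprabasal layers. Vimentin (VIM) is the filament of mesenchymal cells, lamins line the inner nuclear membrane, and plakins link filaments to junctions and to the rest of the cytoskeleton.

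Signals are given as multiples of the median signal of the array, which was 11.1, 10.6 and 11.5 on resistant arrays 1, 2 and 3 and 11.1, 12.8 and 11.3 on parental arrays 1, 2 and 3. Each change is the log2 ratio of resistant to parental cells, ± SE with 3 arrays per group, and folds are ratios of geometric means. Each adjusted p is from limma, with Benjamini-Hochberg adjustment over the 26563 probe sets whose mean signal was at least the array median, and "rose" and "fell" are used of genes for which it was below 0.05. Where a count at an unadjusted p below 0.05 is also given, no share of all tested genes at that limit was computed. The shares of genes that rose or fell are at the adjusted p and are not a background for such counts. The labels do not say whether replicate arrays stand for separate cultures, so the spread behind each p-value is that between these samples and may be technical. Parental array 3 stood apart: it correlated with the other parental arrays at r = 0.949 and 0.946, against 0.966 between those, and with the resistant arrays at 0.935 to 0.939, where parental arrays 1 and 2 gave 0.914 to 0.929. Results are therefore also given without it. EPCAM and CDH1, markers of epithelium, averaged 336 and 136 times the array median in resistant cells and 309 and 157 times in parental cells, whereas CDX1 and CDX2, transcription factors of intestine, reached at most 1.17 and 1.14 times on any array.

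Of the 56 members, 18 were bright enough to be tested, 10 keratins and 8 other genes. Among these 18 genes 4 rose (KRT8, KRT18, KRT20 and KRT23) and 4 fell (KRT7, KRT10, KRT80 and PPL). Over all 11849 tested genes, read in the same way, 7.37% rose and 5.05% fell. Together 12.4% of all tested genes rose or fell (by single probe sets, 5.75% rose and 4.27% fell). Of the 8 genes, 4 differed by 2-fold or more (KRT20, KRT23, KRT80 and PPL), where 5.54% of all tested genes passed both limits. The 3 resistant arrays lay wholly above the 3 parental arrays for 6 of the 18 and wholly below them for 6, against 20.2% and 15.2% of all tested genes (35.5% in either direction). Without parental array 3, 8 of the 18 rose and 5 fell, where 16.9% and 15.3% of all tested genes did. These 8 include NES, which only the resistant arrays carried over the limit for testing. KRT20, KRT10, KRT80 and PPL were called with each array left out in turn, and KRT8, KRT18 and KRT7 lost their calls with the removal of any array other than parental array 3.

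**Figure D1:**
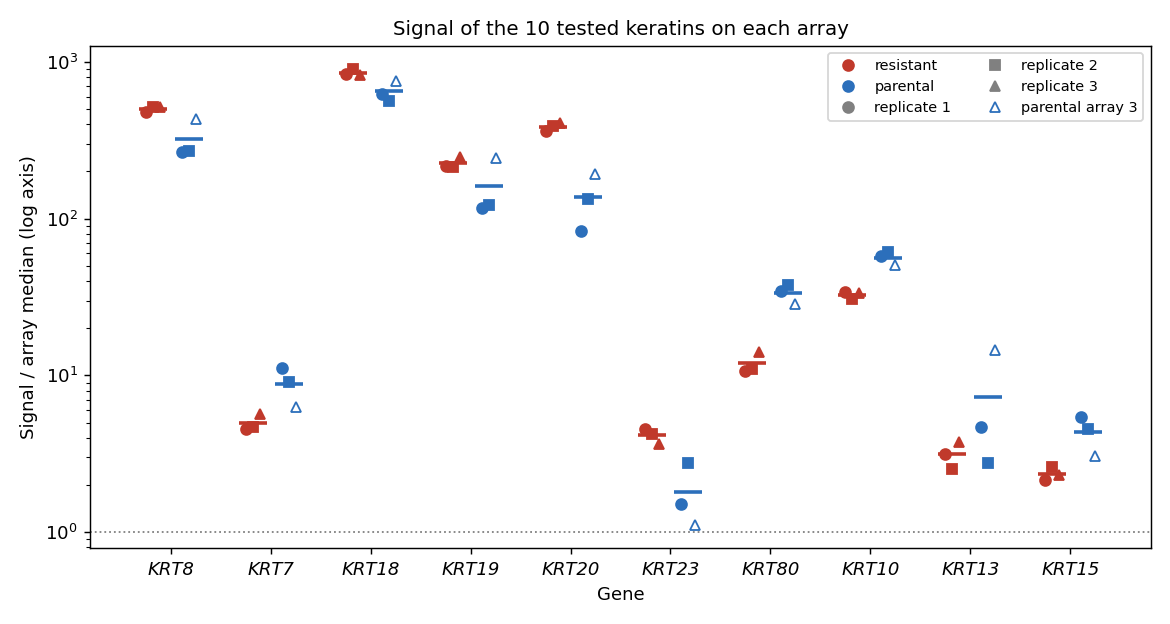
Signal of the 10 tested keratins on each array, as a multiple of the array median on a log axis (resistant in red, parental in blue, 1 marker shape per replicate number, group means as horizontal bars, the array median as a dotted line). Parental array 3, drawn as an open triangle, lies above parental arrays 1 and 2 for KRT8, KRT18, KRT19, KRT20 and KRT13, and for KRT19 it lies within the range of the resistant arrays.

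Of the 5 simple-epithelial keratins, all of them tested, 3 rose and 1 fell, where 7.37% and 5.05% of all tested genes did. The median change of these keratins was 0.57, against 0.02 over all tested genes. Without parental array 3, 4 of the 5 rose and 1 fell, where 16.9% and 15.3% of all tested genes did. KRT20, the type I keratin of differentiated enterocytes and goblet cells, gave 361, 387 and 404 times the array median on resistant arrays 1, 2 and 3, and 83.8, 133 and 193 times on parental arrays 1, 2 and 3. All resistant values were above all parental values. KRT20 rose 2.97-fold (1.57 ± 0.24, adjusted p = 0.0037), or by 1.86 ± 0.15 without parental array 3 (adjusted p = 1.48e-05).

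KRT8, the type II keratin of simple epithelia, gave 478, 516 and 512 times the array median on the resistant arrays and 265, 270 and 429 times on the parental arrays. The groups did not overlap, and parental array 3 stood nearer to the resistant arrays than to the other parental arrays. KRT8 rose 1.60-fold (0.68 ± 0.16, adjusted p = 0.0299). KRT18, its usual type I partner, gave 835, 902 and 821 times on the resistant arrays and 622, 565 and 754 times on the parental arrays, and rose 1.33-fold (0.41 ± 0.11, adjusted p = 0.0394). Both calls were close to the threshold: over the alternatives to this fit, their highest adjusted p was 0.214 and 0.2. Without parental array 3 the changes were 0.91 ± 0.08 for KRT8 and 0.52 ± 0.08 for KRT18 (adjusted p = 1.57e-05 and 0.000552). KRT8 and KRT18 were each read by a single probe set, of a type with probes common to other transcripts, and the RefSeq gene table lists 52 pseudogenes of KRT8 and 68 of KRT18, whose transcripts such probes may not tell from those of the genes.

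KRT19, a type I keratin that also pairs with KRT8, gave 216, 213 and 247 times the array median on the resistant arrays and 116, 123 and 243 times on the parental arrays. Parental array 3 was within the resistant range, and the 6-array difference of 0.57 ± 0.24 was not past the test (adjusted p = 0.156). Leaving that array out, KRT19 was 0.91 ± 0.09 higher (adjusted p = 6.51e-05). KRT7, a type II keratin of ductal and glandular epithelia, ran the other way, with 4.53, 4.68 and 5.66 times on the resistant arrays and 11.2, 9.07 and 6.33 times on the parental arrays. It fell 1.75-fold (-0.81 ± 0.22, adjusted p = 0.0489). Its other tested probe set, a dim one, gave -0.54 ± 0.45 (adjusted p = 0.474), and with both averaged the change was -0.67 (adjusted p = 0.143).

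Because keratins work in pairs, the type I chains KRT18, KRT19 and KRT20 were also set against KRT8 on each array. KRT7 is a type II chain like KRT8, so not its partner, and was compared with it in the same way. The log2 difference between KRT20 and KRT8 was larger in resistant than in parental cells by 0.89, and the difference between KRT7 and KRT8 was smaller by 1.49 (-1.49), in both cases with no overlap between the arrays. For KRT19 the shift was -0.11, with overlapping arrays. For KRT18 it was -0.27, and the resistant arrays ran from -0.36 to -0.23 relative to the parental mean, where parental array 3 stood at -0.22 and the other parental arrays at 0.20 and 0.03. These shifts were not tested.

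Of the 16 keratins of stratified epithelia only KRT10, KRT13 and KRT15 had a mean signal above the array median, and of these 1 fell and 0 rose by limma (0 rose and 2 fell at an unadjusted p below 0.05). By the adjusted p, 7.37% of all tested genes rose and 5.05% fell. KRT10, the suprabasal type I keratin, gave 33.8, 30.8 and 33.6 times the array median on the resistant arrays and 58.1, 60.8 and 50.2 times on the parental arrays, with no overlap. It fell 1.72-fold (-0.78 ± 0.13, adjusted p = 0.00558), and 2 of its 3 probe sets fell. KRT15, a type I keratin of basal keratinocytes, gave 2.15, 2.59 and 2.31 times on the resistant arrays and 5.41, 4.54 and 3.05 times on the parental arrays. Its groups did not overlap, but -0.85 ± 0.25 was not past the test (adjusted p = 0.0575), while without parental array 3 it was 1.08 lower on the log2 scale (-1.08 ± 0.22, adjusted p = 0.00468).

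KRT13, the type I keratin of the suprabasal layers of mucosal stratified epithelia, gave 3.17, 2.54 and 3.74 times the array median on the resistant arrays and 4.71, 2.77 and 14.5 times on the parental arrays. The high value was that of parental array 3 alone, and the difference of -0.89 ± 0.49 (adjusted p = 0.274) was -0.22 ± 0.28 without it (adjusted p = 0.61). The other 13 stratified keratins, which include KRT1, KRT2, KRT4, KRT5, KRT14 and KRT16, had a mean below the array median. KRT5 and KRT14 stood at no more than 0.216 and 0.609 times it on any array. The 7 measured genes of a list of stratified epithelium markers were dim as well. Of these, 4 were tested (IVL, SPRR1A, SPRR1B and SPRR3), and 0 of them rose or fell by limma (0 also at an unadjusted p below 0.05). The summed level of the list was 6.35 to 9.05 times the array median in resistant cells and 8.16 to 9.59 times in parental cells. A list of squamous differentiation genes, described below, also holds SFN, which was bright. That list summed to 189 to 210 times in resistant cells and 96.1 to 156 times in parental cells.

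Beside these groups 2 other keratins were tested, of which 1 rose and 1 fell. KRT80, a type II keratin expressed in many epithelia, gave 10.6, 11.1 and 14.1 times the array median on the resistant arrays and 34.3, 37.8 and 28.3 times on the parental arrays. It fell 2.81-fold (-1.49 ± 0.17, adjusted p = 0.000793), and all resistant values were below all parental ones. KRT23, a type I keratin that histone deacetylase inhibitors induce in some cancer cell lines, gave 4.58, 4.25 and 3.65 times on the resistant arrays and 1.52, 2.77 and 1.11 times on the parental arrays. It rose 2.48-fold (1.31 ± 0.32, adjusted p = 0.0325), a call that ended without any single resistant array or without parental array 1 (adjusted p from 0.0877 to 0.129).

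**Figure D2:**
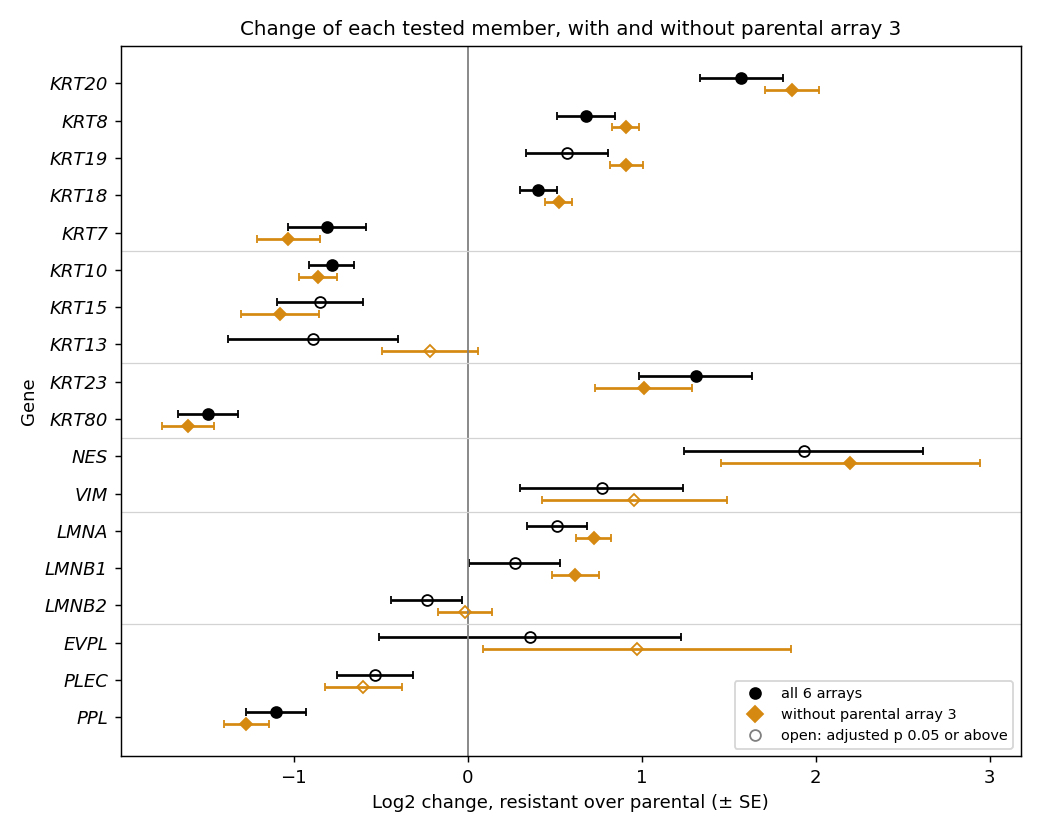
Log2 change of the 18 tested members, resistant over parental, with SE bars (black circles, all 6 arrays; orange diamonds, without parental array 3; filled where the adjusted p was below 0.05). KRT20 (1.57) and KRT80 (-1.49) lie far from 0 in both fits, and KRT19, KRT15, NES, LMNA and LMNB1 are filled only without parental array 3.

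The keratin genes lie in clusters, the type II genes and KRT18 on chromosome 12 and the other type I genes on chromosome 17. In chromosome order, KRT80 and KRT7 are neighbors at one end of the chromosome 12 cluster and both fell, and KRT8 and KRT18 are neighbors at the other end and both rose. Between them lie 23 keratin genes, of which 17 had a probe set of their own, and each of these 17 had a mean signal below the array median. On chromosome 17 KRT10, KRT12, KRT20 and KRT23 follow each other, and KRT10 fell (-0.78) while KRT20 and KRT23 rose (1.57 and 1.31). KRT13, KRT15 and KRT19, which also follow each other, gave -0.89, -0.85 and 0.57.

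**Figure D3:**
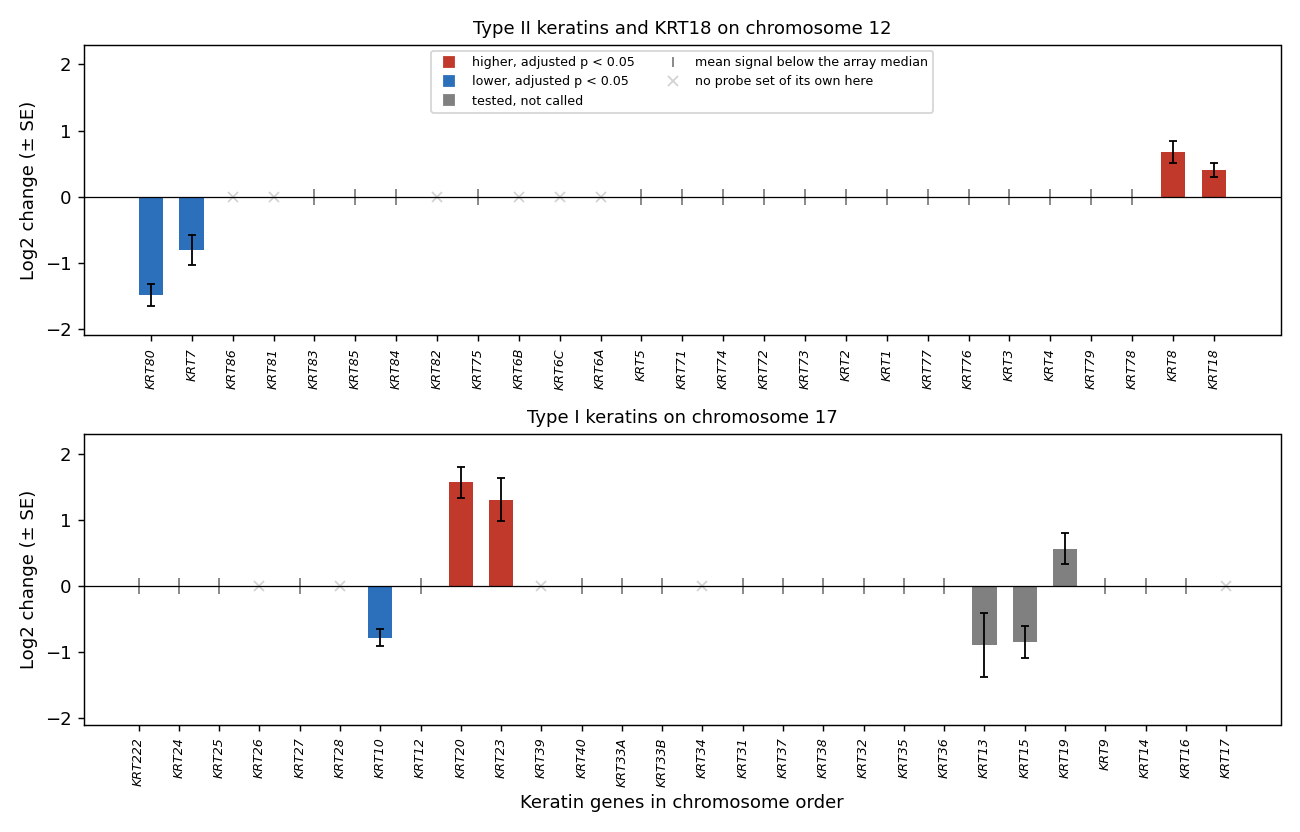
Log2 change (± SE) of keratin genes in chromosome order, on chromosome 12 (upper panel) and chromosome 17 (lower panel), with genes that rose in red, genes that fell in blue, tested genes past neither in gray, ticks for genes with a mean signal below the array median and crosses for genes with no probe set of their own here. KRT80 and KRT7 stand at one end of the upper panel at -1.49 and -0.81, and KRT8 and KRT18 at the other at 0.68 and 0.41.

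KRT10 and KRT20 lie close together on one strand and moved in opposite directions, so the 250 bases before the start of each are shown, from RefSeq (GRCh38.p14, minus strand, 5′ to 3′, KRT20 at chr17:40885243-40885492 and KRT10 at chr17:40822615-40822864). Of the 18 tested members 8 had an entry in this table. Capitals mark TTTAT, the core recognized by CDX factors, or its reverse complement ATAAA.
KRT20: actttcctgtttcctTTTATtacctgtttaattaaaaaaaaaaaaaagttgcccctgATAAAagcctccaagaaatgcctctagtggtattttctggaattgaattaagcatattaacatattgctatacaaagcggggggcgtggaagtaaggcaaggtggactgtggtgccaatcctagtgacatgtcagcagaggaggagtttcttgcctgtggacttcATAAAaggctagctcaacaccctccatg
KRT10: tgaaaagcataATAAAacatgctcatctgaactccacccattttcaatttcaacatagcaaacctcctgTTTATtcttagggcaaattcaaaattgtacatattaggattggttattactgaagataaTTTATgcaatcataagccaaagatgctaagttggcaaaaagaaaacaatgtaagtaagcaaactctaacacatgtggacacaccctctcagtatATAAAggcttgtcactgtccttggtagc
KRT20 held 3 matches and KRT10 held 4, one of which lies within the TATA box (TATAAA) that begins 29 bases before the KRT10 start. KRT20 has ATAAA at the corresponding place, 28 bases before its start, but no TATAAA on either strand. Of 35116 promoters of the same length 32.7% held at least 1 match on either strand, 5.20% held at least 3 and 2.10% at least 4, and 10.7% held TATAAA. A match is a description of these letters and not a binding site.

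All 19 keratins of hair and its root sheath, and KRT24 and KRT222, had a mean below the array median. Over the 38 members that were not tested, single values lay between 0.0261 and 1.78 and means between 0.0629 and 0.929 times the array median, and 12 of the 38 stood above the median on at least 1 array. The groups did not overlap for 4 of these 38 (KRT71, KRT72, KRT76 and SYNM), a share close to the 12.2% found over all 7926 genes below the limit for testing.

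The filaments of other cell types were dim or at the edge of measurement. VIM gave 1.71, 0.896 and 1.64 times the array median on the resistant arrays and 0.91, 0.539 and 1.04 times on the parental arrays. The overlapping groups differed by 0.77 ± 0.47 (adjusted p = 0.321). The parental mean of VIM was 0.828 times the array median, so the resistant arrays carried it over the limit for testing. NES, nestin of neural and other progenitors, gave 1.89, 1.25 and 1.69 times on the resistant arrays and 0.802, 0.148 and 0.602 times on the parental arrays. All parental values of NES were below the array median, so that the resistant arrays carried it over the limit for testing, and 1.93 ± 0.69 was not past the test (adjusted p = 0.103, and 0.0485 without parental array 3; 1.10 with 0.5 added before the log). DES, NEFL, NEFM and SYNM, filaments of muscle and neurons, had means below the array median. Of 6 genes of a mesenchymal program only FN1, fibronectin, was tested, with 0.180, 0.538 and 0.183 times the array median on the resistant arrays and 2.91, 1.05 and 2.56 times on the parental arrays. The parental arrays alone carried FN1 over the limit for testing. It fell (-2.93 ± 0.70, adjusted p = 0.0282, and 0.0574 without parental array 3; -1.69 with 0.5 added before the log), a call that also ended without resistant array 1, resistant array 3 or parental array 1. The summed level of this list was 2.01 to 2.72 times in resistant cells and 3.55 to 5.58 times in parental cells, and CDH2, ZEB1, ZEB2, SNAI2 and TWIST1 had means below the array median. In a list of 8 fibroblast markers, 1 of 3 tested genes rose (LUM, 3.20 ± 0.55, adjusted p = 0.00717, a call that ended without resistant array 1 or 2), while COL1A2, COL3A1, DCN, PDGFRB and POSTN had means below the array median. All parental values of LUM were below the array median, the resistant arrays carried it over the limit for testing, and with 0.5 added before the log its change was 1.94. Over all tested genes 7.37% rose and 5.05% fell. The summed level of the fibroblast list was 9.01 to 9.84 times the array median in resistant cells and 6.32 to 7.22 times in parental cells. The part of these genes in the signals of VIM and NES was not tested.

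**Figure D4:**
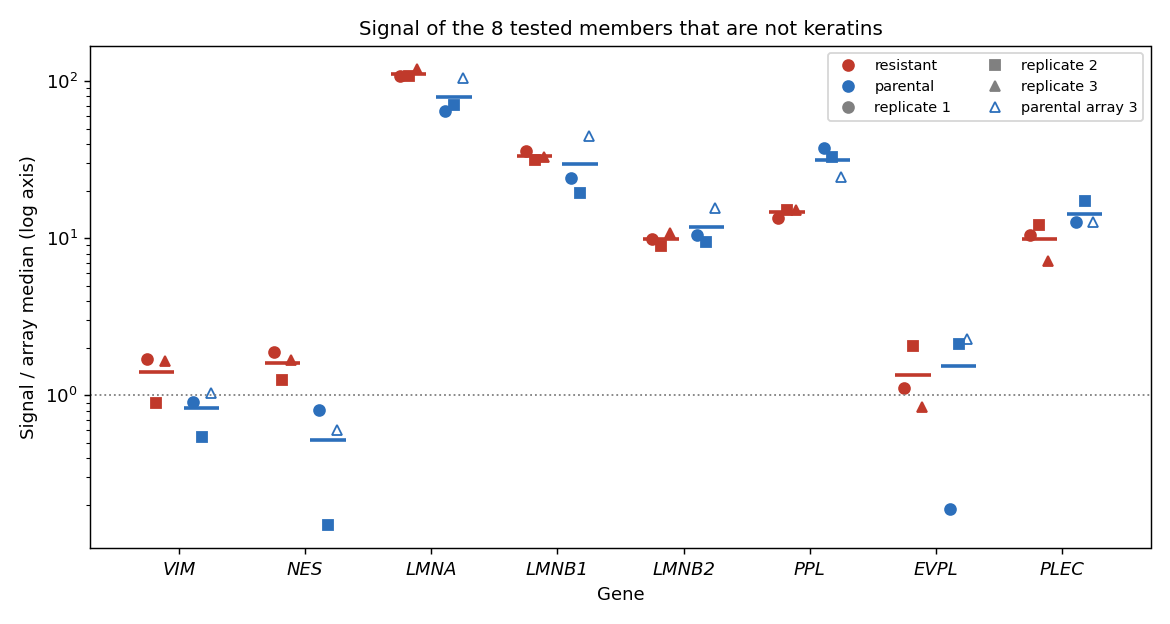
Signal of the 8 tested members that are not keratins on each array, as a multiple of the array median on a log axis (resistant in red, parental in blue, marker shape by replicate number, group means as bars, the array median as a dotted line). PPL lies lower on all resistant arrays, parental array 3 (open triangle) is the highest array for LMNB1 and LMNB2, and VIM, NES and EVPL lie around the dotted line.

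Among the lamins 0 of 3 rose or fell by limma (1 rose and 0 fell at an unadjusted p below 0.05). LMNA, which encodes lamins A and C, gave 108, 107 and 120 times the array median on the resistant arrays and 64.5, 70.8 and 104 times on the parental arrays. On this brightest probe set the groups did not overlap, but 0.52 ± 0.17 was not past the test (adjusted p = 0.0852). The other tested probe sets of LMNA gave 0.39, 0.37, 0.49 and -0.13 with overlapping groups. None of these was past the test (adjusted p from 0.137 to 0.859). LMNB1, a B-type lamin of proliferating cells, gave 36.2, 31.3 and 33 times on the resistant arrays and 24.3, 19.5 and 44.9 times on the parental arrays. Its highest and lowest values were both parental, and the difference was 0.27 ± 0.26 (adjusted p = 0.545). LMNB2 gave 9.89, 8.87 and 10.8 times on the resistant arrays and 10.4, 9.45 and 15.6 times on the parental arrays (-0.23 ± 0.20, adjusted p = 0.5). Without parental array 3, LMNA and LMNB1 rose by 0.72 ± 0.10 and 0.62 ± 0.14 (adjusted p = 0.000425 and 0.00622) and LMNB2 gave -0.02 ± 0.15. Of 17 tested partners of the lamina, 1 fell and 0 rose (6 fell and 2 rose at an unadjusted p below 0.05): SYNE4, an outer nuclear membrane protein of epithelia that binds kinesin, fell 1.81-fold (-0.85 ± 0.23, adjusted p = 0.0467), a call that ended without resistant array 1 or 2 or parental array 1 or 2. EMD, LBR, SUN1, SUN2 and the lamin protease ZMPSTE24 were among the 16 not past the test. By the adjusted p, 7.37% of all tested genes rose and 5.05% fell. Without parental array 3, 3 of the 17 rose and 5 fell, where 16.9% and 15.3% of all tested genes did.

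Of the plakins, PPL (periplakin), which connects keratins with desmosomes and the cell cortex, gave 13.5, 15.1 and 15.2 times the array median on the resistant arrays and 37.4, 33.2 and 24.7 times on the parental arrays. It fell 2.14-fold with no overlap (-1.10 ± 0.17, adjusted p = 0.00463). EVPL, its partner envoplakin, gave 1.12, 2.06 and 0.843 times on the resistant arrays and 0.189, 2.13 and 2.28 times on the parental arrays, and 0.36 ± 0.87 gave no call (adjusted p = 0.826). PLEC (plectin), which links filaments to hemidesmosomes, gave 10.6, 12.1 and 7.18 times on the resistant arrays and 12.6, 17.2 and 12.8 times on the parental arrays. That difference, -0.53 ± 0.22, was not past the test (adjusted p = 0.153), and the other PLEC probe set gave -0.19 ± 0.15.

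Junction proteins that anchor keratin filaments were listed beside the members, and 3 of 13 tested genes rose and 0 fell (4 rose and 3 fell at an unadjusted p below 0.05). Their median change was 0.19, against 0.02 over all tested genes, of which 7.37% rose and 5.05% fell. Without parental array 3, 4 of the 13 rose, PNN being added, and 2 fell (PKP4 and MACF1). Of all tested genes 16.9% rose and 15.3% fell without that array. PERP, a tetraspan protein of desmosomes read with shared probes, gave 204, 205 and 217 times the array median on the resistant arrays and 60.2, 61.5 and 123 times on the parental arrays, and rose 2.71-fold (1.44 ± 0.24, adjusted p = 0.00553). ITGA6, the alpha chain of the hemidesmosomal integrin, rose 1.41-fold (0.49 ± 0.11, adjusted p = 0.0248), and DSG2, the desmoglein of simple epithelia, rose 1.39-fold (0.48 ± 0.13, adjusted p = 0.0436). The calls of ITGA6 and DSG2 ended without any single resistant array or without parental array 1, and that of DSG2 also without parental array 2. Of the 2 tested probe sets of ITGA6, 1 rose. The keratin-binding desmosome plaque protein DSP gave 0.19 ± 0.15 and JUP, plakoglobin, 0.19 ± 0.15 (adjusted p = 0.468 and 0.44). Of 4 tested genes among other intermediate filament and filament-associated genes (PRPH, BFSP1, IFFO2 and TCHP), 0 rose or fell by limma (0 also at an unadjusted p below 0.05), and the largest differences were 0.69 ± 0.41 for BFSP1 and -0.41 ± 0.30 for IFFO2 (adjusted p = 0.315 and 0.404).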

How the data were processed

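RNA of 3 resistant and 3 parental samples was hybridized to 1 array each. The authors deposited 1 linear signal intensity per probe set and array, for which the submitters' processing notes name MAS5 (its version and target intensity: not given in the sources used here). Detection calls are not part of this table, and the number of arrays limits the precision. Groups and replicate numbers came from the sample titles. The 62 control probe sets were left out of 54675. Intensities were scaled to the array median, as in the study's methods, with exact zeros set to 0.05, and log2 transformed. Testing was limited to the 26563 probe sets whose mean reached 1 times the median. Gene symbols were those of the platform annotation, brought up to RefSeq by Entrez identifier (41091 probe sets with 1 symbol, 1801 with several, 11721 with none).

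Groups were compared with limma 3.58.1 in R 4.3.3 (lmFit, eBayes with an intensity trend, two-sided). The fit was also run on simulated data with independent normal noise. Those data held no outlying array such as parental array 3, so the run says nothing of its effect on the p-values. With 3 arrays in each group the smallest p of an exact permutation test is 0.1, and no such test was run. The members and lists were chosen with earlier results of these data known. Every tested member was named, and from each list the called genes, at most 6, or the 2 largest differences where none was called; other genes were named after their values were seen.

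The fit was repeated with quantile normalization, without any scaling, and without the filter or with it at 3 times the median. It was also repeated with signals below the 25th percentile of an array set to it, and with 0.5 added before the log. Further fits left out the intensity trend, added a block for the replicate number, or took the mean over a gene's probe sets. Others used probe sets of one transcript alone, an added 2-fold threshold, or left out each array in turn. A plain t-test with equal variances was run on the same log2 values. It is not the study's own procedure, in which genes were also filtered by control strength.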

Additional observations from a re-analysis of the deposited data

How the results depend on the processing

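KRT20, KRT80 and PPL kept their calls under every alternative but the plain t-test. KRT10 lost its call with the plain t-test and with the 2-fold threshold, and could not be read from probe sets of one transcript alone. It kept its call under the others. No member that rose or fell changed direction under any alternative. The adjusted p of KRT8, KRT18, KRT7 and KRT23 lay nearer the threshold, and 46 of 313 alternative values of single members lost a call while 8 gained one. The number of risen members was 4, and it was 2 with quantile normalization, 1 with no filter and 1 without the intensity trend. It was 0 with the plain t-test (4 at an unadjusted p) and 2 with the 2-fold threshold. With probe sets of one transcript alone it was 1 (KRT8, KRT18 and KRT23 have none that was tested). The number of fallen members was 4, and it was 0 with the plain t-test (5 at an unadjusted p) and 2 with the 2-fold threshold. With probe sets of one transcript alone it was 2 (KRT10 has none that was tested, and that of KRT7 gave -0.54, adjusted p = 0.474). With single arrays left out, risen members ranged from 1 (without any resistant array or parental array 1) to 8 (without parental array 3), and fallen members from 3 to 5.

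Over all probe sets, 1528 rose and 1135 fell, against 698 and 504 without the intensity trend and 198 and 121 with the plain t-test. With the 2-fold threshold 735 rose and 505 fell, and with single arrays left out 476 to 3586 rose and 393 to 3518 fell. The median change of the simple-epithelial keratins (0.57) ranged from 0.38 without parental array 1 to 0.91 without parental array 3, and that of the stratified keratins (-0.85) was -0.36 with no filter, where dim members enter. The median of the tested members that are not keratins (0.31) was -0.23 with the filter at 3 times the median, which drops VIM, NES and EVPL, and ranged from -0.065 without parental array 1 to 0.67 without parental array 3. EVPL (0.36) ranged from -0.82 without parental array 1 to 0.97 without parental array 3, and was -0.0035 without resistant array 2.

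Deviations of same-numbered resistant and parental arrays from their group means correlated at -0.02, -0.02 and -0.02 across the tested probe sets. Differently numbered arrays gave 0.0032 to 0.0137, so no shared deviation was seen. The labels do not say whether same-numbered arrays were handled together. With the replicate number as a block, 3 members rose and 3 fell, and 1265 probe sets rose and 828 fell. Values near or below the array median, such as those of VIM, NES and EVPL, have no detection call behind them.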

Other observations

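Transcription factors known to act on gut genes, keratin genes among them, were also listed. Of 7 tested, 2 rose and 0 fell by limma (3 rose and 0 fell at an unadjusted p below 0.05). By the adjusted p, 7.37% of all tested genes rose and 5.05% fell. The median change of the 7 was -0.0016, against 0.02 over all tested genes. GATA6, an endodermal GATA factor, gave 35.8, 29.5 and 35.5 times the array median on the resistant arrays and 20.4, 22 and 15.8 times on the parental arrays, and rose 1.74-fold (0.80 ± 0.16, adjusted p = 0.016). NR5A2, a nuclear receptor of intestinal crypts and liver, rose 2.31-fold (1.21 ± 0.29, adjusted p = 0.0288). KLF4 and KLF5 gave -0.04 ± 0.38 and -0.05 ± 0.15 (adjusted p = 0.966 and 0.874), and without parental array 3 KLF4 was lower by 0.60 on the log2 scale (-0.60 ± 0.13, adjusted p = 0.0068). The call of GATA6 ended without resistant array 1 or 3, and that of NR5A2 without any single array but parental array 3.

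Of 8 tested colon epithelium markers, 4 of which are keratins described above, 5 rose and 0 fell (6 and 0 at an unadjusted p below 0.05). Over all tested genes 7.37% rose and 5.05% fell. KRT8, KRT18, KRT20, VIL1 and LGALS4 rose, while KRT19, EPCAM and CDH1 were not past the test. Without parental array 3, 6 rose and 1 fell (CDH1, -0.32 ± 0.10, adjusted p = 0.0333), where 16.9% and 15.3% of all tested genes did. Among the markers outside the keratins, VIL1, the villin of brush border microvilli, gave 39, 38.4 and 37.8 times the array median on the resistant arrays. It gave 24, 21.7 and 20.7 times on the parental arrays, and rose 1.74-fold (0.80 ± 0.13, adjusted p = 0.00504). Of the 4 tested probe sets of VIL1, 2 rose. LGALS4, a galectin of the intestine, rose 1.97-fold (0.98 ± 0.25, adjusted p = 0.0351), and its call, like that of SFN, ended without any single resistant array or parental array 1. Of 8 tested genes of squamous differentiation 1 rose and 0 fell by limma (1 and 0 at an unadjusted p below 0.05): SFN, the 14-3-3 sigma protein that binds keratins, gave 176, 191 and 197 times on the resistant arrays and 105, 83 and 141 times on the parental arrays, and rose 1.75-fold (0.81 ± 0.17, adjusted p = 0.0183). Of the 3 tested probe sets of SFN, 2 rose. For leukocyte and endothelial markers, 0 of 1 tested gene of either list rose or fell (0 also at an unadjusted p below 0.05). The summed levels were 2.06 to 2.84 and 2.57 to 2.90 times the array median in resistant cells, and 2.76 to 3.22 and 2.06 to 3.50 times in parental cells.

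Parental array 3 was displaced from the mean of parental arrays 1 and 2 toward the resistant arrays in 7 of the 8 members that rose or fell, KRT23 being the exception. The same held for 70.6% of all 1471 genes that rose or fell. Since that array belongs to the group compared, this is a description of where its values lie.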
